A study of Mus musculus with 18 samples.

Results

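The genes described here encode interleukin 1 beta, tumour necrosis factor (TNF) and closely related cytokines and receptors: Il1b, Il1rn, Il1r1, Il1r2, Tnf, Tnfrsf1a, Tnfrsf1b, Il6 and Il10. They are 9 of the 23474 genes in the expression table and were chosen by name, through their Ensembl identifiers, and all 9 were found. Messenger RNA was sequenced from epididymal white adipose tissue (eWAT, the fat pad along the epididymis) and from liver of male mice aged 17 weeks. The groups were mice fed high fat and termed prone (HP), mice fed high fat and termed resistant (HR), and mice on normal diet (ND). Each tissue had 3 libraries per group, which makes 18 libraries in all. The mice were of an inbred strain written C57BL/6J in the growth protocol and C56BL/6J in the strain field, carried no stated genetic alteration, and had been fed for 12 weeks from 5 weeks of age. The labels describe a random division into groups of 10 mice. They do not say how prone and resistant mice were told apart, nor whether the 3 libraries of a group are 3 different mice. Every p-value therefore measures the spread between these libraries, which may be technical.

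Interleukin 1 signals through the receptor encoded by Il1r1. The product of Il1rn binds that receptor without activating it, and the product of Il1r2 binds interleukin 1 as a decoy. TNF, made largely by macrophages, acts on a broadly expressed death-domain receptor, encoded by Tnfrsf1a, and on a more restricted receptor, encoded by Tnfrsf1b, that is found mainly on leukocytes and endothelium. Il6 encodes an inflammatory cytokine that also drives hepatic acute-phase genes, and Il10 encodes a cytokine that restrains macrophage activation. In obese fat these genes are studied because macrophages gather there and TNF and interleukin 1 dampen insulin signalling in adipocytes.

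Values are FPKM, that is fragment numbers scaled by transcript length and by library size, so levels can be set side by side between genes. Of the eWAT libraries, HR 2 and ND 1 differed most from the rest: their median correlations with the other eWAT libraries were 0.713 and 0.607, against 0.906 to 0.967 for the other 7. Both carried transcripts of spermatids, with summed FPKM of 4 spermatid genes of 11231 in HR 2 and 92413 in ND 1. HP 1 and ND 3 also carried such transcripts, at a lower level, with sums of 1738 and 2282 FPKM, against 7.47 to 128 FPKM in the other 5. The sum of 7 epididymis genes was 1275 FPKM in HP 2 and 21204 FPKM in ND 1, against 0.807 to 157 FPKM in the other 7 libraries. The main eWAT results are given over all 9 libraries and over the 7 libraries without ND 1 and HR 2, so that ND rests on ND 2 and ND 3 over 7 libraries. An alternative also left out ND 3 and HP 1, which leaves 1 ND library that is assumed to vary like the other groups. In liver, HP 2 and HP 3 carried skeletal muscle transcripts, with summed FPKM of 5 muscle genes of 98.9 and 19.9, against at most 0.955 in the other liver libraries. The defining markers of each tissue were present: summed FPKM of 4 adipocyte genes was 3533 to 29573 across the eWAT libraries, and that of 5 hepatocyte genes was 13188 to 43945 across the liver libraries, with Alb listed at 0 in liver HP 3.

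The genomic windows just before the transcription starts are shown for 3 genes that were higher in HP fat (Il1rn, Tnf and Tnfrsf1b) and for Il1b, whose groups overlapped there. Each run is the 250 bases before an annotated start, 5′ to 3′ on the gene's strand, from RefSeq on GRCm38.p6. Il1rn has 3 annotated starts, of which the first and the second are shown, and FPKM per gene does not say which start was used. RefSeq promoters were matched for 8 of the 9 genes. Capitals mark matches on either strand to a TATA box (TATAAA), an AP-1 site (TGANTCA), a PU.1 core (GAGGAA) or the NF-kappa-B consensus.
Il1rn first start, plus strand, chr2:24336610-24336859: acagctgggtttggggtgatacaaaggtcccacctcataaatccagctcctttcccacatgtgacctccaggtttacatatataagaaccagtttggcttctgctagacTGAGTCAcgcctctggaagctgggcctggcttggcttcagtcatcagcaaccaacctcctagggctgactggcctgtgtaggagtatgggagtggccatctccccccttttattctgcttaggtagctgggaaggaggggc
Il1rn second start, plus strand, chr2:24345041-24345290: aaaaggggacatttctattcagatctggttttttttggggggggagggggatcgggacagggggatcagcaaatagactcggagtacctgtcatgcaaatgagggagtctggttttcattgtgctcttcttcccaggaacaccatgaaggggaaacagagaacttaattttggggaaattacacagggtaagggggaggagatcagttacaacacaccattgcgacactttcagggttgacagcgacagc
Tnf, minus strand, chr17:35202008-35202257: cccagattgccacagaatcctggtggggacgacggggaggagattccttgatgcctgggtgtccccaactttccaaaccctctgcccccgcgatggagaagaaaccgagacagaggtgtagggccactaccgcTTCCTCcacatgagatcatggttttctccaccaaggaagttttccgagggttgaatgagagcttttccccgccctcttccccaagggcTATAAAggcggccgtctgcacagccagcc
Tnfrsf1b, minus strand, chr4:145246871-145247120: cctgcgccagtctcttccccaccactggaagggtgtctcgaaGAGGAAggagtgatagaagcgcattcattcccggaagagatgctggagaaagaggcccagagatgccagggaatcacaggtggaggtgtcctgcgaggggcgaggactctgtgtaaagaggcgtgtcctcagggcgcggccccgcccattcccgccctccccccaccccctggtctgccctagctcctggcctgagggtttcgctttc
Il1b, minus strand, chr2:129371140-129371389: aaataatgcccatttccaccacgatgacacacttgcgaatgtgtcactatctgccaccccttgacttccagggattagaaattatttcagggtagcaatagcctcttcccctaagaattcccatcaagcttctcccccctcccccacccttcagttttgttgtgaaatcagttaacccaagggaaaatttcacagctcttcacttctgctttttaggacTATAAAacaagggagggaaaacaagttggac

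Among all 32851 windows of this length in the RefSeq table, 12.4% held the TATA box, 6.75% the AP-1 site, 23.3% the PU.1 core and 3.9% the NF-kappa-B consensus. In the printed windows the TATA box matched in Tnf and Il1b, on the plus strand of each gene, with its first base 29 and 31 bases before the start. The AP-1 site matched once, 141 bases before the first Il1rn start. The PU.1 core matched in Tnf, on the other strand, where it reads TTCCTC, and in Tnfrsf1b, and the second Il1rn window held none of the 4 motifs. No matches overlapped each other. These are matches of letters and not sites shown to be bound in these mice.

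In fat of HP mice the interleukin 1 receptor antagonist and TNF rose, and the levels of interleukin 1 beta overlapped between the groups. Il1rn was at 56.9, 58.2 and 74.3 FPKM in the HP libraries, against 0, 0.70 and 0.15 FPKM in the ND libraries. Every HP library was above every ND library, and the lowest HP value was 81.3 times the highest ND value. On the log2(FPKM + 1) scale the difference was 5.67 (SE 0.53, adjusted p = 0.0196, limma over 9 libraries) and 5.51 (SE 0.22, adjusted p = 6.85e-05) over 7 libraries.

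Il1b was barely detected in fat. Its values were 0.43, 0.30 and 0.10 FPKM in HP fat, against 0.97, 0.14 and 0.45 FPKM in ND fat. The groups overlapped, and the highest value was in ND 1. Il1b did not pass the filter of 1 FPKM in 3 libraries. With no filter its log2 difference was -0.22 (SE 0.21, adjusted p = 0.667, limma) over 9 libraries and -0.01 (SE 0.15, adjusted p = 0.969) over 7. The ratio of Il1rn to Il1b was 133, 191 and 716 in the HP libraries, against 0, 5.00 and 0.35 in the ND libraries. Il1b lies over an antisense gene, Il1bos, in the reference annotation, and reads of the pair cannot be told apart without the strand setting, which is not given in the sources used here.

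**Figure D1:**
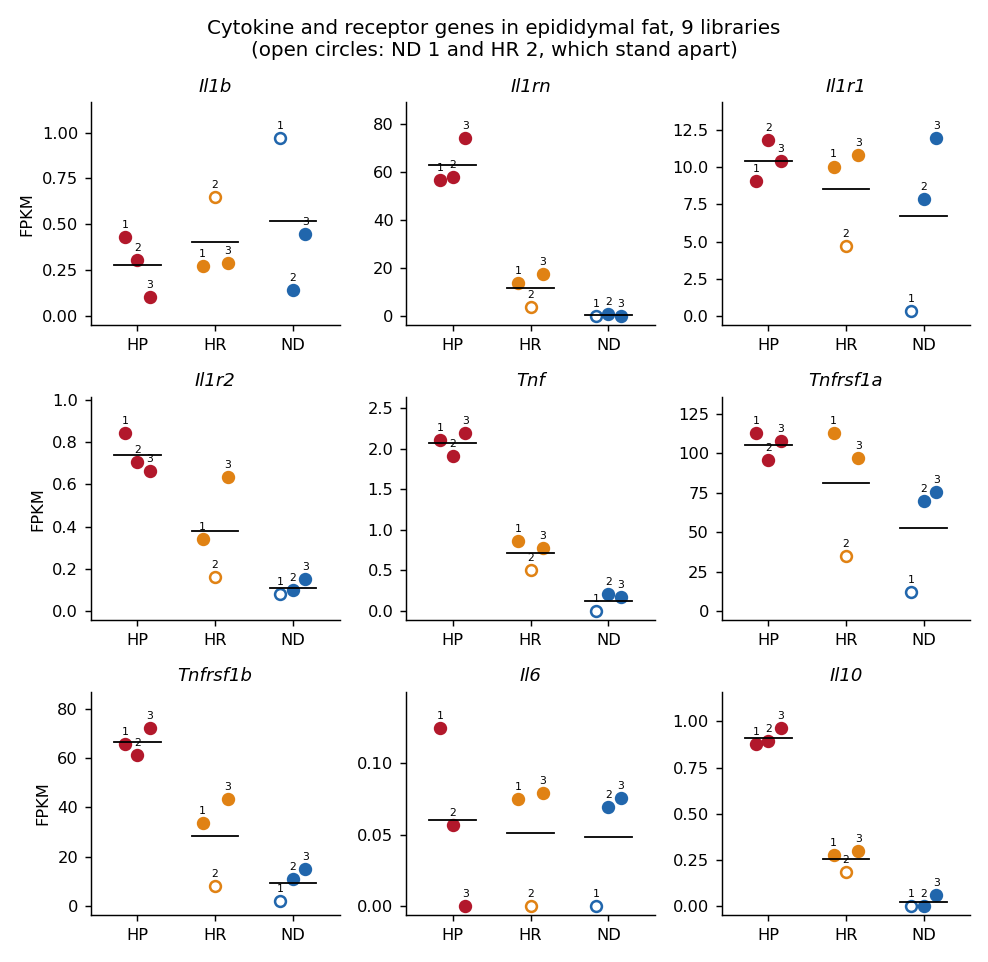
FPKM of the 9 genes in each eWAT library, HP, HR and ND from left to right; the number beside a point is the replicate, lines are group means of 3 libraries, and open circles are ND 1 and HR 2. For Il1rn, Il1r2, Tnf and Il10 no library lies inside the range of another group, whereas Il1b, Il1r1 and Il6 overlap between the groups.

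Tnf was low in fat and higher in HP. It stood at 2.11, 1.91 and 2.19 FPKM in HP fat, against 0, 0.21 and 0.17 FPKM in ND fat. The groups did not overlap, and the 3 HP libraries lay close together. Tnf passed the filter only through its 3 HP libraries, so a difference was needed for it to be tested at all. Its log2 difference was 1.45 (SE 0.25, adjusted p = 0.0365, limma) over 9 libraries, 1.37 (SE 0.21, adjusted p = 0.00454) over 7, and 1.45 (adjusted p = 0.0253) over 9 with no filter.

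The TNF receptors were among the most abundant of these genes in fat. Tnfrsf1b was at 65.8, 61.3 and 72.2 FPKM in HP fat, against 1.83, 10.9 and 15.1 FPKM in ND fat, with no overlap. Its log2 difference was 3.05 (SE 0.77, adjusted p = 0.109, limma) over 9 libraries, which did not pass, and 2.28 (SE 0.18, adjusted p = 0.000338) over 7, which did. Tnfrsf1a was at 113, 95.5 and 107 FPKM in HP fat, against 12.3, 69.6 and 75.6 FPKM in ND fat. The HP libraries were again all higher, and ND 1 was far below the other ND libraries. The log2 difference of Tnfrsf1a was 1.35 (SE 0.72, adjusted p = 0.56) over 9 libraries and 0.53 (SE 0.13, adjusted p = 0.0267) over 7. With ND 3 and HP 1 also left out Tnfrsf1a was no longer called, at 0.53 (adjusted p = 0.0643), whereas Tnfrsf1b was, at 2.50 (adjusted p = 0.000702), as was Il1rn, at 5.30 (adjusted p = 0.00022).

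The balance of the receptors differed between the groups. The ratio of Tnfrsf1a to Tnfrsf1b was 1.71, 1.56 and 1.49 in HP fat, 3.33, 4.25 and 2.24 in HR fat, and 6.73, 6.37 and 5.02 in ND fat. The 3 groups did not overlap, with ND 1 and HR 2 included. In liver the ratio was 5.01 to 7.22 in HP, 4.24 to 5.54 in HR and 4.01 to 5.24 in ND libraries, and the groups overlapped.

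The signalling interleukin 1 receptor overlapped between the groups in fat, whereas the decoy receptor was higher in HP, at a low level. Il1r1 was at 9.07, 11.8 and 10.4 FPKM in HP fat, against 0.34, 7.82 and 11.95 FPKM in ND fat. The highest value of all was in ND 3 and the lowest in ND 1. Its log2 difference was 1.09 (SE 0.79, adjusted p = 0.587, limma) over 9 libraries and 0.09 (SE 0.20, adjusted p = 0.783) over 7. Il1r2 was at 0.84, 0.71 and 0.67 FPKM in HP fat, against 0.08, 0.10 and 0.15 FPKM in ND fat, without overlap. It was below the filter, and with no filter its log2 difference was 0.65 (SE 0.13, adjusted p = 0.0713) over 9 libraries and 0.63 (SE 0.12, adjusted p = 0.0232) over 7. Il1r2 overlaps the antisense gene Gm16894 in the reference annotation.

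Il10 was higher in HP fat and Il6 was near the floor everywhere. Il10 was at 0.88, 0.89 and 0.96 FPKM in HP fat, and in ND fat it was listed at 0 in ND 1 and ND 2 and at 0.06 FPKM in ND 3. Every HP library was above every ND library. Il10 was below the filter, and with no filter its log2 difference was 0.91 (SE 0.08, adjusted p = 0.0245, limma) over 9 libraries and 0.89 (SE 0.08, adjusted p = 0.00203) over 7. Il6 was at 0.12, 0.06 and 0 FPKM in HP fat, against 0, 0.07 and 0.08 FPKM in ND fat, with log2 differences of 0.02 (adjusted p = 0.921) over 9 libraries and -0.02 (adjusted p = 0.876) over 7.

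Counted over HP against ND in fat, 5 of the 9 genes passed the filter and 2 of those 5 (Il1rn and Tnf) passed the test upward over 9 libraries, where 2.07% of the 14430 genes tested were called higher and 0.0416% lower. Over 7 libraries it was 4 of 5, with Tnfrsf1a and Tnfrsf1b added, where 15.7% of 13054 genes were called higher and 7.4% lower. In both fits Tnf passed the filter only through its 3 HP libraries, so a difference was needed for it to be counted. With no filter 3 of 9 genes were called over 9 libraries (Il10, Il1rn and Tnf), where 1.02% of 21006 genes were called higher, and 6 of 9 over 7 libraries, where 9.06% of 19995 were. No member was called lower in any of these fits. Groups did not overlap, with HP higher, for 6 of the 9 genes, against 15.6% of the 21006 genes above 0 in fat. With no filter the median log2 difference of the 9 genes was 1.09 over 9 libraries and 0.63 over 7, against -0.03 and -0.03 for all genes. With 3 libraries against 3 an exact two-sided permutation test cannot go below p = 0.1, and it gave 0.1 for each of those 6 genes, 0.4 for Il1b and Il1r1, and 1 for Il6.

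The calls over 9 libraries depended on single libraries. Il1rn remained called without ND 1, HR 2 or HR 3 and was no longer called without any one of ND 2, ND 3, HP 1, HP 2, HP 3 or HR 1, where its adjusted p reached 0.172. In each of those omissions that lost the call, none of all the genes tested was called. The log2 difference of Il1rn was 5.51 to 5.89 over all 9 omissions. Tnf remained called without HR 2, was no longer called without any one of ND 1, ND 2, ND 3, HR 1 or HR 3, and was not tested without an HP library, since the filter then removed it.

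Summed markers of several cell types also separated the groups in fat. The summed FPKM of 12 macrophage markers was 2945 to 4108 in HP, 445 to 1750 in HR and 61.0 to 602 in ND fat, with no marker at 0 in any library. Of these 12 markers 4 rose in HP against ND over 9 libraries, and over 7 libraries 9 rose and 1 fell. The sum of 12 neutrophil markers was 58.5 to 67.1 FPKM in HP, 11.5 to 52.6 FPKM in HR and 6.68 to 15.5 FPKM in ND fat, with Ly6g listed at 0 in 8 of the 9 libraries. The sum of 5 fibroblast markers was 1706 to 1837 FPKM in HP, 227 to 1241 FPKM in HR and 43.3 to 1040 FPKM in ND fat. That of 5 mast cell markers was 29.3 to 46.5 FPKM in HP, 7.15 to 14.9 FPKM in HR and 3.71 to 16.7 FPKM in ND fat. That of 5 mesothelial markers was 9.17 to 11.9 FPKM in HP, 10.3 to 35.9 FPKM in HR and 26.7 to 71.9 FPKM in ND fat, so that HP lay above ND in fibroblast and mast cell markers and below ND in mesothelial ones, without overlap. Over 7 libraries 3 of 5 fibroblast and 4 of 5 mast cell markers rose and 3 of 5 mesothelial markers fell in HP against ND, and over 9 libraries 0, 1 and 0 did. The sum of 5 Kupffer cell markers, low in fat, was 5.14 to 5.76 FPKM in HP, 2.52 to 6.92 FPKM in HR and 2.74 to 3.37 FPKM in ND fat. In bulk tissue, more cells of a type and more RNA per cell cannot be told apart. Il1rn made up 1.45%, 1.98% and 1.81% of the macrophage marker sum in HP fat, 0.99%, 0.86% and 1.01% in HR fat, and 0%, 0.12% and 0.03% in ND fat. These shares did not overlap between the groups. Tnfrsf1b made up 1.68% to 2.08% in HP, 1.83% to 2.47% in HR and 1.82% to 3.17% in ND fat, and these shares overlapped. Tnf made up 0.0534% to 0.0649% in HP, 0.0442% to 0.115% in HR and 0% to 0.0352% in ND fat, so that its HP and HR shares overlapped while ND lay below. The part of any of these cell types in these results was not tested.

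**Figure D2:**
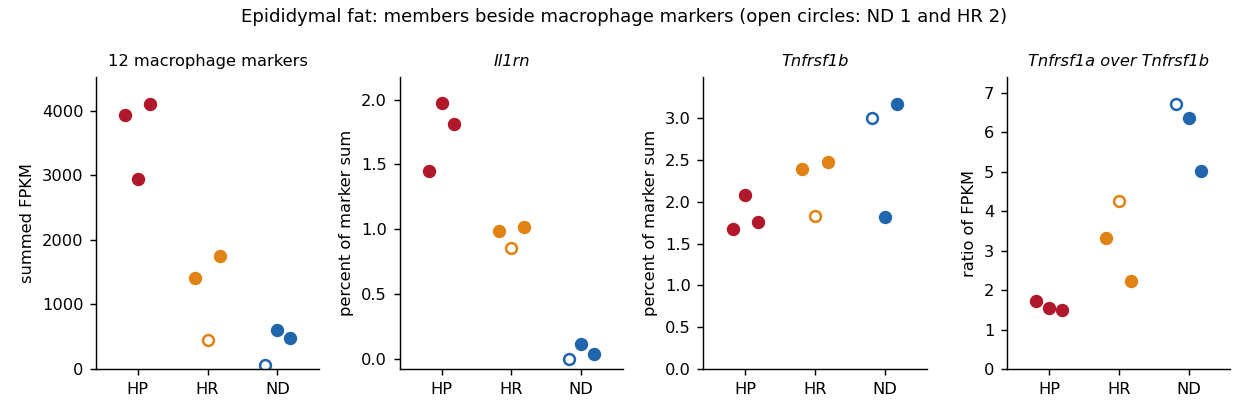
From left to right: summed FPKM of 12 macrophage markers, Il1rn and Tnfrsf1b as a percent of that sum, and the ratio of Tnfrsf1a to Tnfrsf1b, in each eWAT library (open circles: ND 1 and HR 2). The Il1rn share separates HP from HR and HR from ND, while the Tnfrsf1b share does not.

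In HR fat Il1rn, Tnf, Il10 and Il1r2 lay between HP and ND without overlap. Il1rn was at 14.0, 3.82 and 17.7 FPKM in HR fat. All 3 values were above the highest ND value by at least 5.45 times and below the lowest HP value by at least 3.21 times. For HR against ND its log2 difference was 3.14 (SE 0.53, adjusted p = 0.88, limma) over 9 libraries and 3.58 (SE 0.24, adjusted p = 0.00178) over 7. For HP against HR it was 2.53 (SE 0.53, adjusted p = 0.689) over 9 libraries and 1.93 (SE 0.22, adjusted p = 0.0177) over 7.

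Tnf was at 0.86, 0.51 and 0.77 FPKM and Il10 at 0.28, 0.18 and 0.30 FPKM in HR fat. For each of them the HR libraries lay below all HP and above all ND libraries. Over 7 libraries the log2 difference of Tnf was 0.61 (SE 0.22, adjusted p = 0.221, limma) for HR against ND and 0.76 (SE 0.21, adjusted p = 0.0811) for HP against HR. With no filter, over 7 libraries, that of Il10 was 0.33 (SE 0.08, adjusted p = 0.165) for HR against ND and 0.57 (SE 0.08, adjusted p = 0.0421) for HP against HR. Il1r2, at 0.34, 0.16 and 0.64 FPKM in HR fat, also lay between the other groups without overlap, by margins of 1.08 times over ND and 1.04 times under HP.

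Tnfrsf1b was at 33.8, 8.16 and 43.3 FPKM in HR fat, below all HP libraries, with HR 2 inside the ND range. Over 7 libraries it was called for HR against ND, with a log2 difference of 1.50 (SE 0.20, adjusted p = 0.0107, limma), and not for HP against HR, where it was 0.78 (SE 0.18, adjusted p = 0.0529). Tnfrsf1a was at 112, 34.7 and 96.7 FPKM and Il1r1 at 10.0, 4.71 and 10.8 FPKM in HR fat. The other HR libraries lay inside or near the HP range of Tnfrsf1a, and its log2 difference for HP against HR over 7 libraries was 0.01 (SE 0.13, adjusted p = 0.977). Il1b was at 0.27, 0.65 and 0.29 FPKM and Il6 at 0.07, 0 and 0.08 FPKM in HR fat, inside the ranges of the other groups or overlapping them.

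Over 9 eWAT libraries none of the 5 genes tested was called by limma for HR against ND or for HP against HR, and neither was any of the 14430 genes tested (0%), although 392 and 679 of those genes had an unadjusted p under 0.05. Over 7 libraries, HR against ND called 2 of 5 genes higher (Il1rn and Tnfrsf1b), where 3.85% of 13054 genes were called higher and 0.291% lower. HP against HR called 1 of 5 higher (Il1rn), where 4.21% were called higher and 2.25% lower, and with no filter 2 of 9 (Il1rn and Il10), where 1.02% of 19995 genes were called higher. Groups did not overlap for 4 of the 9 genes in HR against ND (Il1rn, Il1r2, Tnf and Il10, all higher), against 2.7% of the 21006 genes above 0, and for 5 of 9 in HP against HR, where Tnfrsf1b was added, against 12.6%. Of the 12 macrophage markers, over 7 libraries 7 rose in HR against ND and 9 rose in HP against HR, and over 9 libraries none was called in either. The 3 comparisons in fat share their libraries, as do the 3 in liver, so they are not separate evidence of 1 order.

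In liver the pattern was a different one: the signalling receptor Il1r1 changed with diet, most in HR mice, and the antagonist was not called. Il1r1 was at 8.23, 6.54 and 7.62 FPKM in HP liver, 11.5, 13.6 and 13.8 FPKM in HR liver, and 3.73, 5.92 and 5.66 FPKM in ND liver. The 3 groups did not overlap. For HR against ND its log2 difference was 1.21 (SE 0.16, adjusted p = 0.00408, limma), and it was called in all 17 alternatives, at adjusted p of 0.0039 to 0.0226. For HP against HR it was -0.72 (SE 0.16, adjusted p = 0.0206). For HP against ND it was 0.49 (SE 0.16, adjusted p = 0.0402).

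The calls that involve HP depended on settings and on single libraries. With no filter neither was made (adjusted p = 0.0748 for HP against ND and 0.0519 for HP against HR). The call for HP against ND was also lost at adjusted p = 0.203 when libraries were rescaled to the same sum, which moved the median of all genes to -0.21, and it was lost without any one of ND 1, ND 3, HP 1, HP 2, HP 3, HR 2 or HR 3, with log2 differences of 0.31 to 0.59 over all 9 omissions. The call for HP against HR was lost without HP 2, HP 3, HR 2 or HR 3 (adjusted p of up to 0.0857), and without HP 2 and HP 3 together its log2 difference was -0.59 (adjusted p = 0.444).

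The sums of some marker lists also differed between HP and HR liver. The sum of 5 fibroblast markers was 86.6 to 146 FPKM in HP liver, against 41.6 to 64.8 FPKM in HR liver. That of 4 adipocyte markers was 107 to 152 FPKM in HP liver, against 40.9 to 43.5 FPKM in HR liver. Adipoq and Plin1, defining adipocyte markers, were listed at 0 in all 3 HR libraries and in HP 2, and Plin1 also in HP 3. Where both genes are at 0 the sum rests on Fabp4 and Cidec alone and does not show adipocytes. Both sums were higher in HP, where Il1r1 was lower, and their part in the Il1r1 values was not tested.

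**Figure D3:**
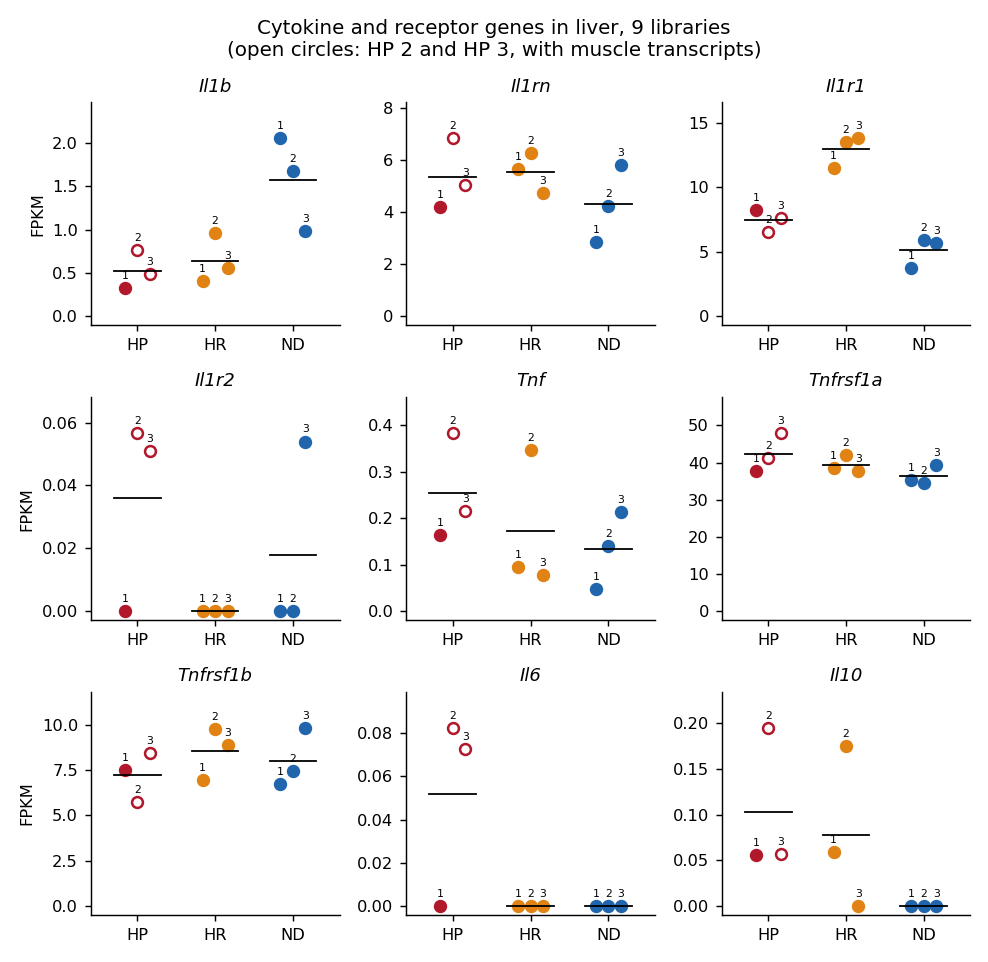
FPKM of the 9 genes in each liver library, drawn as in the plot of fat; open circles are HP 2 and HP 3. Il1r1 is highest in HR and lowest in ND, Il1b is highest in ND, and the remaining genes overlap between groups or are near 0.

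Interleukin 1 beta was lower in liver on the high-fat diet. Il1b was at 0.33, 0.76 and 0.48 FPKM in HP liver and 0.41, 0.96 and 0.56 FPKM in HR liver, against 2.06, 1.68 and 0.98 FPKM in ND liver. All 6 libraries on the high-fat diet lay below the 3 on normal diet, by margins of 1.29 times for HP and 1.02 times for HR. Il1b missed the filter through ND 3, and with no filter its log2 difference was -0.74 (SE 0.19, adjusted p = 0.0323, limma) for HP against ND, where 6.42% of 17240 genes were called lower, and -0.64 (SE 0.19, adjusted p = 0.161) for HR against ND. The sum of Il1b and Il1a, the other interleukin 1 ligand gene, was 1.48, 1.96 and 2.29 FPKM in HP liver and 1.33, 2.68 and 1.97 FPKM in HR liver, against 4.96, 4.33 and 3.28 FPKM in ND liver. These sums did not overlap with ND either. The sum of 5 Kupffer cell markers, which mark the resident macrophages of liver, was 65.7 to 78.2 FPKM in HP, 46.8 to 119 FPKM in HR and 59.0 to 81.9 FPKM in ND liver. None of those markers was at 0, and none of the 5 was called for either comparison with ND. The sum of 12 neutrophil markers was 5.94 to 7.26 FPKM in HP, 3.27 to 6.94 FPKM in HR and 2.34 to 2.46 FPKM in ND liver, and the 2 of those markers that were tested rose in HP against ND. The sum of 8 T and NK cell markers was 1.57 to 2.84 FPKM in HP, 2.0 to 3.02 FPKM in HR and 3.24 to 4.65 FPKM in ND liver, and that of 6 endothelial markers was 12.4 to 17.5 FPKM in HP, 11.1 to 17.0 FPKM in HR and 18.1 to 20.8 FPKM in ND liver. Both sums were, like Il1b, lower in every library on the high-fat diet than in any on normal diet. The part of any of these cell types in the Il1b values was not tested.

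The other members were not called in liver. Il1rn was at 4.18, 6.85 and 5.05 FPKM in HP liver, 5.66, 6.26 and 4.75 FPKM in HR liver, and 2.86, 4.23 and 5.82 FPKM in ND liver, and the groups overlapped. Its log2 difference was 0.28 (SE 0.21, adjusted p = 0.335, limma) for HP against ND and 0.34 (SE 0.21, adjusted p = 0.418) for HR against ND. Tnfrsf1a was at 37.7 to 48.0 FPKM in HP, 37.8 to 41.9 FPKM in HR and 34.6 to 39.5 FPKM in ND liver. Tnfrsf1b was at 5.72 to 8.43 FPKM in HP, 6.97 to 9.77 FPKM in HR and 6.74 to 9.83 FPKM in ND liver. Neither receptor was called in any of the 3 comparisons. Tnf was at 0.16 to 0.38 FPKM in HP, 0.08 to 0.35 FPKM in HR and 0.05 to 0.21 FPKM in ND liver, in overlapping ranges. Il1r2 and Il6 did not exceed 0.09 FPKM in any liver library, and Il10 was at 0.06, 0.19 and 0.06 FPKM in HP liver, 0.06, 0.17 and 0 FPKM in HR liver, and listed at 0 in all 3 ND libraries.

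In liver 4 of the 9 genes passed the filter. For HP against ND 1 of 4 was called higher, where 17.6% of 10633 genes were called higher and 14.1% lower. For HR against ND 1 of 4 was called higher, where 2.28% were called higher and 0.969% lower. For HP against HR 1 of 4 was called lower, where 7.2% were called higher and 3.94% lower. That gene was Il1r1 each time. Groups did not overlap in HP against ND for Il1r1 and Il10 (higher) and Il1b (lower), where 18% and 15.6% of the 17240 genes above 0 lay so. In HR against ND this held for Il1r1 (higher) and Il1b (lower), where 10.3% and 10.5% did. In HP against HR it held for Il1r1 (lower), where 11.3% did.

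The diet difference of several genes differed between the tissues. Over all 18 libraries, (HP minus ND in eWAT) minus (HP minus ND in liver) was 5.39 for Il1rn (SE 0.58, adjusted p = 0.000414, limma), 1.31 for Tnf (SE 0.27, adjusted p = 0.0119) and 3.18 for Tnfrsf1b (SE 0.82, adjusted p = 0.0405). That is 3 of the 5 genes tested, where 4.1% of 15006 genes were called higher and 0.886% lower. Tnf passed the filter only through the 3 HP libraries of eWAT, so a difference was needed for it to be counted. With no filter Il10 (0.77, adjusted p = 0.000538) and Il1r2 (0.62, adjusted p = 0.0143) were called and Tnfrsf1b was not (adjusted p = 0.053), where 3.03% of 21092 genes were called higher. Il1rn was called in all 29 alternatives, Tnf in 20 of the 25 that tested it and Tnfrsf1b in 11 of 29. The call of Tnfrsf1b was lost without any one of the 9 liver libraries or of the 3 HP libraries of eWAT. Without eWAT ND 1 and HR 2 the values were 5.23, 1.23 and 2.41 (adjusted p of 3.9e-07, 0.000446 and 2.75e-05), where 16.7% of 13730 genes were called higher. For HR minus ND no member was called over 18 libraries, where 0.0267% of genes were called higher and 0.0333% lower. Without ND 1 and HR 2 Il1r1 was called there in the opposite sense to the antagonist, at -1.12 (SE 0.27, adjusted p = 0.0257), beside 3.24 for Il1rn (adjusted p = 0.000127) and 1.42 for Tnfrsf1b (adjusted p = 0.00849), where 5.59% were called higher and 1.57% lower. With ND 3 and HP 1 also left out Il1r1 was no longer called there, at -0.84 (adjusted p = 0.0523). For HP minus HR no member was called over 18 libraries, where 0.0533% were called higher and 0.02% lower. Without ND 1 and HR 2, 3 of the 5 genes tested were called higher there, where 785 of 13730 genes were called higher and 607 lower. The tissues share 1 estimate of the spread per gene in these fits, which may understate the spread of the eWAT libraries.

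**Figure D4:**
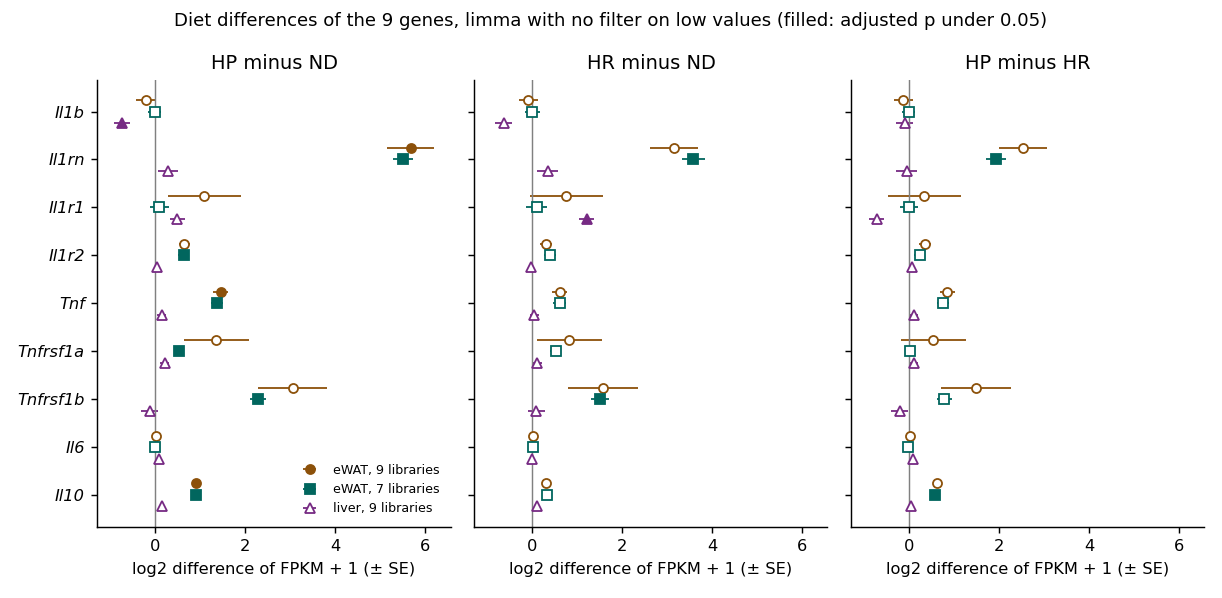
Log2 differences of FPKM + 1 (± SE) of the 9 genes for HP minus ND, HR minus ND and HP minus HR, in eWAT over 9 libraries (circles), in eWAT over 7 libraries (squares) and in liver (triangles), all with no filter on low values so that every gene appears; filled symbols have an adjusted p under 0.05 in that fit. Il1rn is far to the right in eWAT and near 0 in liver, and Il1r1 is the only gene called for HR minus ND in liver. With no filter Il1r1 in liver is open for the comparisons with HP, which were called with the filter.

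Ranked by level in HP fat, Tnfrsf1a came first, with 105 ± 8.84 FPKM (SD, n = 3). Tnfrsf1b (66.5 ± 5.48 FPKM) and Il1rn (63.2 ± 9.71 FPKM) came next and did not differ beyond their spread. Il1r1 (10.4 ± 1.39 FPKM), Tnf (2.07 ± 0.145 FPKM), Il10 (0.912 ± 0.0464 FPKM) and Il1r2 (0.738 ± 0.0933 FPKM) followed, the last pair with no overlap, and Il1b and Il6 were lowest. In HR liver the order was Tnfrsf1a (39.4 ± 2.21 FPKM), Il1r1 (13.0 ± 1.28 FPKM), Tnfrsf1b (8.54 ± 1.43 FPKM) and Il1rn (5.55 ± 0.761 FPKM), without overlap between neighbours, and the other 5 genes were each below 1 FPKM. In ND liver Tnfrsf1b stood above Il1r1 and Il1rn, at 8.01 ± 1.62 FPKM against 5.10 ± 1.20 FPKM and 4.30 ± 1.48 FPKM, and the last pair overlapped.

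Averaged over the diets, 4 of the 5 genes tested were higher in eWAT than in liver by limma, as were 64.1% of 15006 genes, while 13.3% were lower. Of these members, Tnf passed the filter only through the HP libraries of eWAT. The log2 differences were 1.42 for Tnfrsf1b, 0.77 for Tnfrsf1a, 0.69 for Il1rn and 0.61 for Tnf, and that of Il1r1 was -0.12 (adjusted p = 0.754). All genes had a median of 0.95 on this contrast, so only Tnfrsf1b lay above it. Under quantile normalization Il1rn and Tnf turned to -0.07 and -0.11.

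The other genes of these pathways were taken from 7 lists, with 76 of 79 genes in the table. In HP against ND fat over 9 libraries the only one called was Ripk3, a kinase of necroptosis downstream of TNF receptors (log2 difference 1.77, adjusted p = 0.0438, limma). It was 1 of 15 genes tested in the list of TNF shedding and signalling, and none was called in the other 6 lists. The call of Ripk3 remained without HR 2 and was lost without any one of the other 8 eWAT libraries. Its log2 difference was 1.68 to 1.85 over all 9 omissions. Among those 8, only the omissions of ND 1 and of HR 3 left any gene called at all. The calls below for fat are over 7 libraries, where 9 of the 12 macrophage markers also rose. Of the 68 genes tested in the 7 lists, 36.8% rose and 2.94% fell in HP against ND, beside 15.7% and 7.4% of all genes tested. In HR against ND 8.82% rose and none fell, beside 3.85% and 0.291%. In HP against HR 7.35% rose and 2.94% fell, beside 4.21% and 2.25%. For HP against ND a fit with ND 3 and HP 1 also left out covered the up to 4 genes with the largest change in each list. It also covered Timp3, which was chosen after its values were seen. Il11ra1 and Timp3 lost their calls there. That fit leaves 1 ND library and reuses libraries of the fit in which these genes were chosen. Calls kept in it are therefore not separate evidence.

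Among inflammasome and interleukin 1 processing genes, 8 of 9 rose in HP fat and none fell, with a median log2 difference of 1.51. Of the 9, Nlrp3 passed the filter only through its 3 HP libraries, so a difference was needed for it to be tested at all. It was at 1.11 to 1.40 FPKM in HP fat, against at most 0.62 FPKM in HR and 0.31 FPKM in ND fat. The rises over 7 libraries were large for several others. The genes that rose included Pycard (2.41, adjusted p = 0.000248, limma), the adaptor ASC, and Aim2 (2.35, adjusted p = 0.00379), a DNA sensor. They also included P2rx7 (1.85, adjusted p = 0.000859), an ATP-gated channel, and Casp1 (1.82, adjusted p = 0.00109), the protease that matures interleukin 1 beta. In HR against ND 3 of 9 rose, Pycard (1.30), P2rx7 (1.00) and Gsdmd (0.94), the last encoding the pore protein gasdermin D. In HP against HR 3 of 9 rose, Pycard (1.11), Casp1 (1.03) and P2rx7 (0.84).

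Of 15 genes of TNF shedding and signalling, 6 rose and Timp3, an inhibitor of the protease Adam17, fell by 0.88 (adjusted p = 0.0184, limma) in HP against ND. Over 9 libraries Timp3 was at 0.51 and not called, and with ND 3 and HP 1 also left out it was at -0.74 (adjusted p = 0.0744). The largest rises were those of Ripk3 (1.68), Adam17 (1.40), the protease that releases TNF from the cell surface, Tnip1 (1.18) and Traf1 (1.03). In HP against HR Adam17 rose (0.94, adjusted p = 0.0361, limma) and Timp3 fell by 0.88 (adjusted p = 0.0458), against -0.31 and no call over 9 libraries. Of 13 NF-kappa-B subunits and inhibitors 3 rose in HP against ND, Nfkb2 (0.96), Nfkbie (0.92) and Nfkb1 (0.52), and none fell. Of 13 genes of interleukin 6 and interleukin 10 signalling 4 rose, among them both subunits of the interleukin 10 receptor, Il10ra (1.73) and Il10rb (1.51). Of 5 other receptors of the interleukin 1 family 2 rose, Il1rl1 (0.92) and Il1rap (0.77), and Il1rap encodes the co-receptor of Il1r1. Of 10 adaptors and kinases 2 rose, Irak4 (1.29) and Myd88 (0.62), and Irak2 fell by 0.73, although over 9 libraries it was at 0.33 and not called. The counts of 3 of 13 NF-kappa-B genes and 2 of 10 adaptors and kinases are near the 15.7% of all genes that were called higher. None of the 3 other ligands and inhibitors tested was called.

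In liver, of the 52 genes tested in the 7 lists 11.5% rose and 23.1% fell in HP against ND, beside 17.6% and 14.1% of all genes tested. Of the 18 genes called, 4 kept the call without any one of the 9 liver libraries. These were Il18 (0.88, adjusted p = 0.00977, limma), a ligand of the interleukin 1 family, Ikbkg (-0.71, adjusted p = 0.0104), the regulatory subunit of the kinase complex that activates NF-kappa-B, and Lifr (-1.38, adjusted p = 0.00238) and Stat3 (-0.70, adjusted p = 0.00759), a receptor of the interleukin 6 family and its signal transducer. The other 14 were lost without 1 or more single libraries. Among them, Il1a fell by 0.61, Nek7 by 0.80, Il6st by 0.53, Jak1 by 0.50, Tab2 by 0.48, Map3k7 by 0.47, Ripk1 by 0.46, Irak1 by 0.44 and Cflar by 0.34, while Casp4 (0.72), Relb (0.69), Sigirr (0.53), Nfkb2 (0.43) and Nfkbib (0.39) rose. Nfkb2 and Cflar kept the call in 1 of 9 omissions and Map3k7 in 3 of 9. Relb passed the filter only through its 3 HP libraries, so a difference was needed for it to be tested at all. In HR against ND none of the 52 genes was called in liver.

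In HP against HR in liver 5.77% of the 52 genes rose and 7.69% fell, beside 7.2% and 3.94% of all genes tested. Casp4 (0.80), Il10rb (0.75) and Relb (0.63) rose, and Relb passed the filter only through its HP libraries. Lifr fell by 1.47, Stat3 by 0.59, Irak1 by 0.49 and Il1rap, the co-receptor of Il1r1, by 0.45 (adjusted p = 0.0391, limma). Lifr alone of these 7 kept the call in each of the 9 omissions, and Il1rap kept it in 4 of 9.

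**Figure D5:**
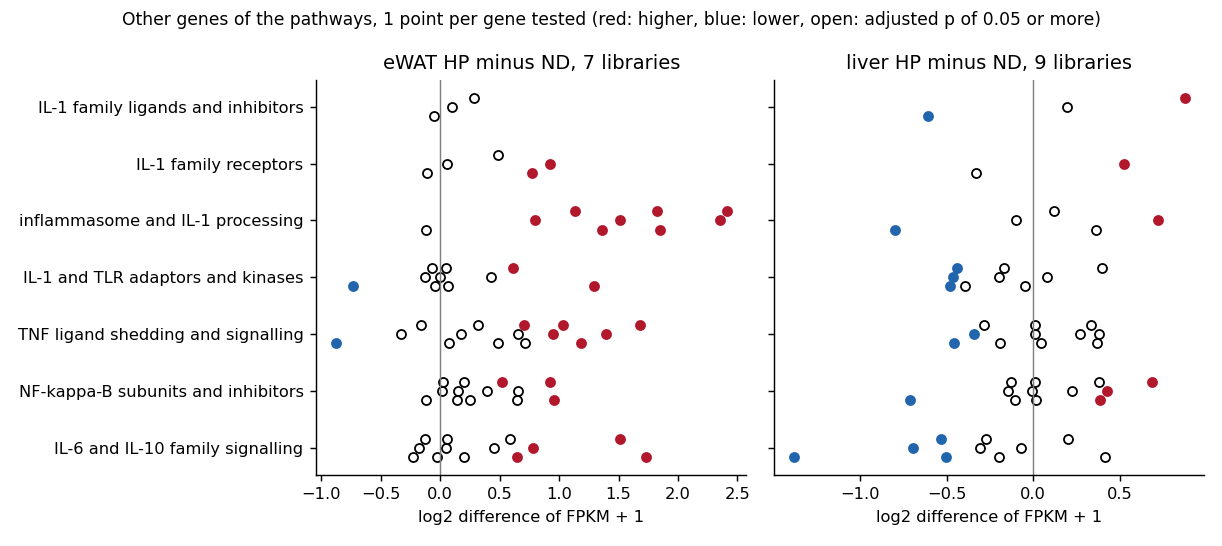
Log2 differences for HP minus ND of the other pathway genes tested, 1 point per gene, in eWAT over 7 libraries (left) and in liver (right); red points were called higher, blue points lower, and open points not called. In eWAT 8 of 9 inflammasome genes are called higher, whereas in liver 6 of the 52 genes are called higher and 12 lower. Of those 9, Nlrp3 passed the filter only through its HP libraries. In liver, Relb passed it only through its HP libraries too.

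Over the 9 eWAT libraries, the genes most like Il1rn in pattern, among 14014 candidates, were Rgs1, Cd300c2 and Tm4sf19, with root mean square differences from Il1rn of 0.187, 0.370 and 0.390 on the centred log2 scale, against a spread of Il1rn about its own mean of 2.38. Their mean levels were 58.6, 70.8 and 52.9 FPKM in HP, 12.7, 16.7 and 10.0 FPKM in HR and 0.375, 1.26 and 0.387 FPKM in ND fat. The genes most like Tnf were Slc9a4, Ebi3 and Actg1, at 0.105, 0.112 and 0.127 against a spread of Tnf of 0.605. Those most like Il1b (Poldip3, Hnrnpm and Ip6k2) lay at 0.104 to 0.107 against a spread of Il1b of 0.247, so these distances were large beside the small variation of Il1b itself.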

How the data were processed

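Libraries of mRNA (TruSeq kit) of eWAT and liver (3 per diet group and tissue) had been sequenced, and the authors deposited 1 table of FPKM per gene for all 18 libraries. The tools named in the submitters' processing notes are Cufflinks 2.1.1, STAR 2.4.0 and CASAVA 1.8.2. Not given in the sources used here are the genome build, the annotation, the strand setting and the read depth, which leaves no basis for a counting interval. Of 23474 Ensembl identifiers 22671 were named through the GENCODE annotation. An exact 0 can be a failed estimate: Alb, the albumin gene, is listed at 0 in liver HP 3.

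Differences were tested with limma 3.58.1 in R 4.3.3 on log2(FPKM + 1), with a variance trend. Genes needed at least 1 FPKM in 3 libraries, which left 14430 in eWAT and 10633 in liver. The 3 groups of a tissue entered 1 fit, and p-values are two-sided, Benjamini-Hochberg adjusted over all genes tested, with a threshold of 0.05. A pseudocount of 1 understates the change of low genes. The fits were tested on simulated data. The members, lists and named genes (up to 4 per list, by size of change among those past the threshold) were chosen with earlier results of these data known. Alternatives changed the pseudocount, filter, scaling, variance trend, groups in the fit, a replicate block and the libraries included.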

Additional observations from a re-analysis of the deposited data

Results flagged for a closer look

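The difference between HP and ND differed between eWAT and liver for 3 genes, by limma's test of that difference over 18 libraries. For Il1rn, (HP minus ND in eWAT) minus (HP minus ND in liver) was 5.39 on the log2(FPKM + 1) scale (adjusted p = 0.000414). For Tnf it was 1.31 (adjusted p = 0.0119), and Tnf passed the filter only through the 3 HP libraries of eWAT. For Tnfrsf1b it was 3.18 (adjusted p = 0.0405), and this call was lost without any 1 of the 9 liver libraries or of the 3 HP libraries of eWAT. In eWAT all HP libraries were above all ND libraries for each of the 3 genes, and in liver the groups overlapped for each.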

How the results depend on the processing

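Of 1040 member values recomputed under the alternatives, 897 kept their direction and their side of the threshold, as did 795 of 1063 values of the named pathway genes. The member values cover genes that passed the filter in the main fit, so Il1b, Il1r2, Il6 and Il10 are not among them. Calls of those genes with no filter were not checked with 1 library left out or under other scaling. The number of members called for HP against ND in eWAT was 2. It was 1 with a pseudocount of 0.1, 0 under quantile normalization, 4 without ND 1 and HR 2, 6 in that fit with no filter, 2 without ND 1, ND 3, HP 1 and HR 2, and 0 to 3 with 1 library left out. For HR against ND in eWAT it was 0, against 2 without ND 1 and HR 2, 2 without ND 1, ND 3, HP 1 and HR 2, 2 without the filter and without ND 1 and HR 2, and 0 to 1 with 1 library left out. For HP against HR in eWAT it was 0, against 1, 2 and 2 in those 3 fits and 0 to 0 with 1 library left out. For HP against ND in liver it was 1, against 0 with libraries rescaled to the same sum, 0 with the compared groups alone, 0 without HP 2 and HP 3, and 0 to 1 with 1 library left out. For HR against ND in liver it stayed at 1 throughout. For HP against HR in liver it was 1, against 0 with no filter, 0 without HP 2 and HP 3, and 0 to 1 with 1 library left out. For the tissue difference of HP minus ND it was 3, against 1 with a pseudocount of 0.1, 1 under quantile normalization, 1 without liver HP 2 and HP 3, 5 without the filter and without eWAT ND 1 and HR 2, and 1 to 3 with 1 library left out. For that of HR minus ND it was 0, against 3, 2 and 4 (without eWAT ND 1 and HR 2, without 4 eWAT libraries, and without the filter and the pair) and 0 to 1 with 1 library left out. For that of HP minus HR it was 0, against 1 with no filter, 3, 3 and 3 in those fits and 0 to 0 with 1 library left out. For eWAT against liver it was 4, against 7 with no filter, 1 under quantile normalization, 9 without the filter and without ND 1 and HR 2, and 2 to 4 with 1 library left out. The number called among all genes moved as well. For HP against ND in eWAT it was 304 of 14430. It was 162 with a pseudocount of 0.1, 0 under quantile normalization and 3013 of 13054 without ND 1 and HR 2. With no filter and without that pair it was 2575 of 19995. Counts without ND 1, ND 3, HP 1 and HR 2 rest on 1 ND library. Without ND 1 and HR 2, HR against ND in eWAT called 540 of 13054 genes and HP against HR called 843. With no filter as well, they called 341 and 293 of 19995. For HP against HR in liver the number was 1185 of 10633, against 580 of 17240 with no filter and 8 of 10451 without HP 2 and HP 3. The tissue difference of HP minus ND called 748 of 15006 genes, and 133 of 14974 without liver HP 2 and HP 3. Without the filter and without eWAT ND 1 and HR 2 it called 3846 of 20177. Those of HR minus ND and HP minus HR called 968 and 1209 there, and 983 and 1392 of 13730 without that pair alone. For HP against ND in liver the counts parted. There, rescaling to a common sum called 3546 genes in place of 3372, while the count of members fell from 1 to 0. With the compared groups alone 2889 of 10496 genes were called there, and without HP 2 and HP 3 it was 360 of 10451. For eWAT against liver 11624 of 15006 genes were called, against 12730 of 21092 with no filter and 8614 under quantile normalization. Without the filter and without ND 1 and HR 2 it was 14896 of 20177. The cause of these changes was not tested.

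Among values that changed sign, none was called with all libraries except 2 in eWAT against liver, where quantile normalization gave -0.11 for Tnf and -0.069 for Il1rn. Without ND 1 and HR 2, with or without the filter, Il1r1 was at -0.0024 for HP against HR in eWAT, -0.40 for the tissue difference of HP minus ND and 0.32 for eWAT against liver, Tnfrsf1a at -0.086 for the tissue difference of HP minus HR, Irak2 at -0.73 for HP against ND and -0.61 for HP against HR in eWAT, and Timp3 at -0.88 for HP against ND in eWAT. Without 4 eWAT libraries the values were -0.043 (Tnfrsf1a, HP against HR in eWAT), -0.031 and 0.26 (Il1r1, tissue difference of HP minus ND and eWAT against liver), -0.14 (Tnfrsf1a, tissue difference of HP minus HR), -0.60 and -0.57 (Irak2, the same comparisons), and -0.74 (Timp3). With libraries rescaled to the same sum Il1r1 was at 0.27 for eWAT against liver, and Tnfrsf1a at -0.0064 for HP against ND and -0.093 for HP against HR in liver. That rescaling moved the median of all genes for HP against ND to 0.40 in eWAT and -0.21 in liver, and called 1108 genes higher and 2438 lower in liver, in place of 1870 and 1502. For HP against HR in liver it called 418 higher and 781 lower, in place of 766 and 419. Without liver HP 2 and HP 3 Tnfrsf1a was at -0.061 for HP against HR.

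With 1 library left out, values ranged over 0 as follows. Il1r1 was at -0.24 to 1.39 for HR against ND and -0.0024 to 0.52 for HP against HR in eWAT, -0.40 to 1.24 and -1.45 to 0.19 for the tissue differences of HP minus ND and HR minus ND, and -0.33 to 0.21 for eWAT against liver. Tnfrsf1a was at -0.0032 to 1.34 for HR against ND in eWAT, and -0.11 to 1.23 and -0.086 to 0.75 for the tissue differences of HR minus ND and HP minus HR. Tnfrsf1b was at -0.24 to 0.010 for HP against ND and -0.014 to 0.23 for HR against ND in liver, and Il1rn at -0.22 to 0.080 for HP against HR in liver. Irak2 was at -0.73 to 0.91 for HP against ND and -0.61 to 0.66 for HP against HR, Timp3 at -0.88 to 1.25 for HP against ND, and Pycard at -0.20 to 0.76 for HR against ND, all in eWAT.

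Between diet groups, the deviations of same-numbered libraries from their group means correlated at -0.84 to 0.62 in eWAT and -0.35 to 0.43 in liver. Between the eWAT and the liver library of the same diet group and number they correlated at -0.24 to 0.28. These values cannot decide whether the replicate numbers pair the diet groups or the tissues. Each group mean rests on few libraries, and some eWAT libraries carried spermatid transcripts, which were not found in liver. With the replicate block the number of members called was 0 for HP against ND in eWAT, 0 for HP against ND in liver, 1 for the tissue difference of HP minus ND and 1 for eWAT against liver. Among all genes that block called 0 of 14430, 2810 of 10633, 499 of 15006 and 6694 of 15006, in the same order. A replicate block across tissues, added after the data had been seen, called 1 member (Il1rn, adjusted p = 0.0199) for the tissue difference of HP minus ND, 0 for those of HR minus ND and HP minus HR, and 4 for eWAT against liver. Of 15006 genes it called 218, 1, 0 and 11276, in the same order.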
